A study of Homo sapiens with 6 samples.

Results

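Sterol enzymes downstream of squalene epoxidase (SQLE) carry the pathway from its first ring-closed intermediate, lanosterol, to cholesterol. The 9 enzymes LSS, CYP51A1, TM7SF2, MSMO1, NSDHL, HSD17B7, EBP, SC5D and DHCR7 were chosen by their place in the pathway, and all 9 were found by Ensembl identifier among the 19937 genes of the count table. The measurement was RNA-seq of poly(A) RNA from U2OS, an established human osteosarcoma cell line, in 6 libraries. In 3 libraries the cells stably expressed a short hairpin RNA against SQLE (shSQLE), and in the other 3 a scrambled hairpin (shControl); both constructs came from the same lentiviral vector, pGIPZ, and both populations were selected with puromycin and grown in McCoy's 5a medium with fetal bovine serum. The silenced group rests on 1 hairpin, and the study's methods speak in general of technical replicates within an independent test, without saying for the sequencing whether replicates were grown as separate cultures, so the SDs and p-values below measure spread among these libraries, which may be technical. The comparison asks whether transcripts of the enzymes after the silenced step were higher or lower when SQLE was silenced.

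Squalene epoxidase makes the substrate of LSS, which closes the sterol rings. The later enzymes then strip methyl groups from the sterol and shift or reduce its double bonds until cholesterol is reached. Genes of this pathway are textbook targets of SREBP-2, a transcription factor held in the endoplasmic reticulum by SCAP and the INSIG proteins when cholesterol is plentiful and released when it is scarce.

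Counts on genes ranged from 12212378 to 14393292 per library. Values below are normalized counts, that is, counts scaled to the mean effective library size by edgeR's TMM method, and a log2 fold change sets shSQLE against shControl. SQLE itself had 1349, 1867 and 1924 normalized counts in the shControl replicates, in their order, against 229, 204 and 219 with the hairpin, and its log2 fold change was -2.98 (standard error 0.17, edgeR adjusted p = 0.000299). Of 10 osteoblast lineage markers, 5 passed the filter on low counts, among them RUNX2, SPP1, SPARC and COL1A1, while SP7 and IBSP had 0 counts in every library; COL1A1, with a log2 fold change of -0.65 (adjusted p = 0.0452), was the marker past the threshold, a call lost when any library but shControl replicate 1 was left out. None of the 5 leukocyte markers passed that filter. Of 4 endothelial markers 1 passed it, PECAM1, with a log2 fold change of -1.67 (edgeR adjusted p = 0.0933). That value rests on few reads, with raw counts of 9, 15 and 15 in the shControl replicates and 4, 6 and 2 in the shSQLE replicates. Of 4 epithelial markers 1 passed the filter, EPCAM, at 0.40 (edgeR adjusted p = 0.362). Replicate 1 of shControl stood apart from shControl replicates 2 and 3: the chi-square of its counts against theirs was 51.3 and 60.8 per degree of freedom, where sampling noise alone would give about 1, and that between replicates 2 and 3 was 2.76. Its offset moved with the GC content of the transcript, from a median of -0.59 on the log2 scale in genes under 40% GC to 0.59 in genes over 60% GC. Among the shSQLE libraries the chi-square per degree of freedom was 3.31 between replicates 1 and 2. For shSQLE replicate 3 it was 9.44 against replicate 1 and 15.2 against replicate 2. Values without shControl replicate 1 are given beside many of those it moves.

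No sterol enzyme passed the test, and all 9 passed the filter on low counts. With edgeR's quasi-likelihood fit, 0 of the 9 enzymes were lower at an adjusted p under 0.05, where 2.84% of the 12450 genes tested were, and 0 were higher, where 0.369% of all genes were. At an unadjusted p under 0.05 the count was also 0, and DESeq2 gave 0 by either measure. The median log2 fold change of the 9 enzymes was -0.06, with 5 negative and 4 positive values, beside a median of -0.01 over all genes tested. Summed over the 9 enzymes, the normalized count was 7243, 6824 and 7042 in the shControl replicates and 6636, 6931 and 6679 in the shSQLE replicates, or 7036 ± 209 against 6749 ± 159 (SD, n = 3 each). The groups overlapped in this sum. In bulk libraries such as these, fewer cells with a transcript and less of it per cell cannot be told apart.

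**Figure D1:**
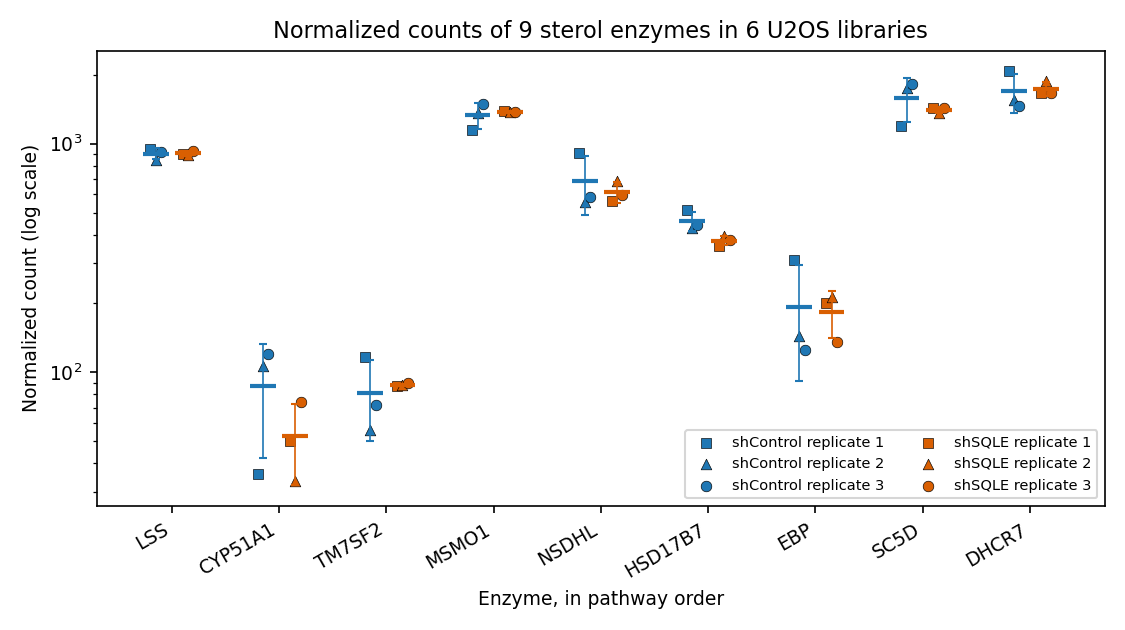
Normalized counts (log scale) of the 9 sterol enzymes, in pathway order, in 3 shControl and 3 shSQLE libraries; points are libraries, bars are group means and whiskers are SDs. The groups overlapped for every enzyme except HSD17B7, and shControl replicate 1 was the highest or the lowest of the 6 libraries for every enzyme except CYP51A1.

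Promoters were read because the pathway is known as a jointly regulated set. RefSeq start sites (GRCh38.p14) matched all 9 enzymes. Within the window of 250 bases before to 50 after the start, the NF-Y box CCAAT, searched on both strands, was found in 8 of the 9 enzymes, in up to 5 copies (NSDHL), against 43.5% of 10121 tested genes with a matched window and 34.6% of all 35116 windows. The GC box GGGCGG, bound by Sp1-type factors, was found in 8 of 9 enzymes (78.6% of tested genes, 45.0% of all windows). The sterol response element searched as TCACNCCAC was found in 0 of 9 enzymes and in 1.39% of tested genes and 1.13% of all windows, which says only that these letters are not in the windows. Matches of the different motifs share no letters, though a pair of CCAAT matches in NSDHL, on opposite strands, overlap, and a match is a description, not a bound site.

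Stretches of 150 bases just before the start site are shown, 5′ to 3′ on the gene's strand, for HSD17B7, the enzyme with separated groups, for CYP51A1 and SC5D, which were called without shControl replicate 1, and for MSMO1, with a log2 fold change of 0.05; capitals mark CCAAT (or ATTGG) and GGGCGG (or CCGCCC). The stretches lie at chr1:162790552-162790701 (+), chr7:92134478-92134627 (-), chr11:121292621-121292770 (+) and chr4:165327519-165327668 (+), in the same order. They end at RefSeq starts, which can differ from the gene spans given below. The CYP51A1 stretch lies inside the CYP51A1 span, and the SC5D stretch runs into the SC5D span. Another matched RefSeq start of SC5D is not shown. CYP51A1 has no CCAAT box here, HSD17B7 and SC5D have 1 each, and MSMO1 has 3. In its full window HSD17B7 has 2. The enzymes shown were picked by their results, and a relation of box number to fold change was not tested.
HSD17B7: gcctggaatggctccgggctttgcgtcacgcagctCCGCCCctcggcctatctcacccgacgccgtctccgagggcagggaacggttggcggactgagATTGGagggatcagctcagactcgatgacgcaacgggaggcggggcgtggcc
CYP51A1: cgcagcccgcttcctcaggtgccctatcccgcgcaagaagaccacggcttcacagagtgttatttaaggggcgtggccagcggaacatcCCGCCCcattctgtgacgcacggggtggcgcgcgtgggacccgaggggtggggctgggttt
SC5D: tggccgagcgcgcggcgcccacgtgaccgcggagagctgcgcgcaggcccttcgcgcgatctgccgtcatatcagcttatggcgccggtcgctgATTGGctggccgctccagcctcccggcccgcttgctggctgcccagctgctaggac
MSMO1: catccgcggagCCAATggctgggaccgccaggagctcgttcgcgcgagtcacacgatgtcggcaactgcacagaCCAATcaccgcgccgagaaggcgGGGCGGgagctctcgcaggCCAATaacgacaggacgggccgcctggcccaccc

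The first enzyme, LSS (lanosterol synthase, ENSG00000160285, hg38 chromosome 21, 46188141 to 46228824, 22 exons in its canonical transcript), folds the product of SQLE into lanosterol. Its normalized count was 943, 849 and 922 in the shControl replicates and 899, 894 and 932 in the shSQLE replicates. All 6 libraries lay within a narrow band. Group means were 905 ± 49.4 and 908 ± 20.8 (SD, n = 3 each), and the log2 fold change was 0.01 (standard error 0.10, 95% interval -0.24 to 0.25, edgeR adjusted p = 0.991). LSS was also the enzyme whose profile over the 6 libraries lay nearest to the mean profile of the 9, with a root mean square difference of 0.06 on the log2 scale.

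Lanosterol then loses its C14 methyl group in a step opened by CYP51A1, a cytochrome P450 (ENSG00000001630, chromosome 7, 92084987 to 92134803). The normalized count of CYP51A1 was 35.8, 107 and 119.7 in the shControl replicates and 49.9, 33.5 and 74.0 in the shSQLE replicates. Replicates 2 and 3 of shControl were above all shSQLE libraries, whereas shControl replicate 1 was among the lowest. The log2 fold change was -0.75 with a wide 95% interval of -1.79 to 0.29 (standard error 0.45, edgeR adjusted p = 0.527). Without shControl replicate 1 it was -1.11 (95% interval -1.64 to -0.58, adjusted p = 0.00514), so the call depended on whether that library was included. In shControl replicate 1 CYP51A1 lay at -1.66 on the log2 scale relative to the mean of the other shControl libraries, while genes of 40 to 45% GC, the bin that holds CYP51A1, had a median of -0.36.

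CYP51A1 and EBP share exons with other counted genes. Of the 4171 exon bases of CYP51A1 in GENCODE v44, 70.8% were also exons of another counted gene on either strand. Most were shared with ENSG00000285772 on the same strand, which had 0 counts in all 6 libraries. AKAP9, on the opposite strand, also shares exon bases with CYP51A1 and was expressed, with raw counts from 175 to 466 per library. In shControl replicate 1 the raw counts of AKAP9 and of CYP51A1 were both at their lowest. Whether AKAP9 reads entered the CYP51A1 values, including the call without that library, was not tested. EBP shared 36.4% of its 1768 exon bases with ENSG00000286268, which had at most 1 count in any library. Of the other enzymes, TM7SF2 shared 18 bases with VPS51 and the remaining 6 shared none. How reads in shared exons were assigned is not given in the sources used here. Raw counts of CYP51A1 ran from 31 to 122 per library, and whether they cover all of its transcripts was not tested. Both CYP51A1 and HSD17B7 also have annotated pseudogenes, with which reads may be shared, so their values are uncertain to that extent.

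TM7SF2 (ENSG00000149809, chromosome 11, 65111845 to 65116384), a C14 sterol reductase, acts after CYP51A1. Its normalized count was 117, 56.1 and 71.6 in the shControl replicates and 87.1, 87.7 and 89.4 in the shSQLE replicates. The shSQLE libraries lay close together, inside the wide shControl range. TM7SF2 had a log2 fold change of 0.13 (standard error 0.27, 95% interval -0.49 to 0.74, edgeR adjusted p = 0.893), and 0.47 without shControl replicate 1 (adjusted p = 0.0662). LBR, the lamin B receptor, carries the same reductase activity and was more abundant per length, at 294 normalized counts per kilobase of canonical transcript in shControl against 51.6 for TM7SF2. The log2 fold change of LBR was 0.13 (adjusted p = 0.863), and -0.08 without shControl replicate 1.

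A set of 3 enzymes removes the C4 methyl groups. MSMO1 (methylsterol monooxygenase, ENSG00000052802, chromosome 4, 165327667 to 165343164) oxidizes them, and its normalized count was 1150.1, 1367 and 1489 in the shControl replicates and 1394, 1381 and 1371 in the shSQLE replicates. The shSQLE values differed by less than the step between any pair of shControl values, and all lay inside the shControl range. The means were 1336 ± 172 and 1382 ± 11.7 (SD, n = 3 each), with a log2 fold change of 0.05 (standard error 0.12, 95% interval -0.23 to 0.33, edgeR adjusted p = 0.913). Without shControl replicate 1 the log2 fold change of MSMO1 was -0.05 (95% interval -0.22 to 0.13).

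NSDHL (ENSG00000147383, chromosome X, 152830967 to 152869729) is the sterol dehydrogenase and decarboxylase of the same complex. Its normalized count was 915, 558 and 586 in the shControl replicates and 560.1, 684 and 596 in the shSQLE replicates. Replicate 1 of shControl was alone above the rest. The log2 fold change was -0.16 with all libraries (95% interval -0.63 to 0.31, edgeR adjusted p = 0.804) and 0.10 without that library (95% interval -0.12 to 0.33).

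HSD17B7 (ENSG00000132196, chromosome 1, 162790702 to 162812823), the ketosteroid reductase that completes each round of C4 demethylation, was the enzyme nearest to a call. Its normalized count was 512, 429.6 and 440.4 in the shControl replicates and 358, 394 and 378 in the shSQLE replicates, so the groups did not overlap and the silenced libraries were the lower ones. The means were 461 ± 44.5 in shControl and 377 ± 18.0 in shSQLE (SD, n = 3 each), the latter 81.9% of the former. Its log2 fold change of -0.29 was not past the threshold (standard error 0.13, 95% interval -0.58 to 0.00, unadjusted p = 0.0525 and adjusted p = 0.350 by edgeR). A separation of the groups in this direction was seen in 1 of the 9 enzymes and in 12.1% of all genes tested, and in the opposite direction in 0 enzymes and 10.0% of genes. When GC content and transcript length were taken out within each library, HSD17B7 was lower past the threshold (log2 fold change -0.32, 95% interval -0.49 to -0.14, adjusted p = 0.0197), as were 8.67% of all genes, while 12.8% of genes were higher. No other sterol enzyme was past it in that fit. Leaving out shControl replicate 1 gave HSD17B7 a log2 fold change of -0.21 (adjusted p = 0.132).

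EBP, the emopamil binding protein (ENSG00000147155, chromosome X, 48521799 to 48528716), is the isomerase that moves the double bond of the B ring. The normalized count of EBP was 311, 144 and 126 in the shControl replicates and 202, 214 and 136 in the shSQLE replicates. Both groups were widely spread, with a coefficient of variation of 52.8% in shControl and 22.9% in shSQLE, against medians over all genes tested of 18.7% and 9.65%. The log2 fold change was -0.06 with a 95% interval of -0.88 to 0.75 (edgeR adjusted p = 0.963). It turned to 0.45 without shControl replicate 1 (95% interval 0.05 to 0.85, adjusted p = 0.0774).

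SC5D (lathosterol oxidase, ENSG00000109929, chromosome 11, 121292681 to 121313410) introduces the double bond at C5. Its normalized count was 1189, 1756 and 1829 in the shControl replicates and 1426, 1362 and 1434 in the shSQLE replicates. The shSQLE libraries lay between shControl replicate 1 and the other shControl libraries. With all libraries the log2 fold change was -0.18 (standard error 0.17, 95% interval -0.56 to 0.21, edgeR adjusted p = 0.716). Without shControl replicate 1 SC5D was lower past the threshold, at -0.35 (95% interval -0.52 to -0.18, adjusted p = 0.00546). In that same fit, genes under 40% GC had a median of -0.25 and genes over 60% GC a median of 0.21; the canonical transcript of SC5D has 36.9% GC. With GC content and length taken out the log2 fold change of SC5D was -0.00 (95% interval -0.17 to 0.16), and the part of base composition in its difference was not tested.

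DHCR7 (ENSG00000172893, chromosome 11, 71428193 to 71452868) is the reductase that ends the pathway by making cholesterol from 7-dehydrocholesterol. Its normalized count was 2070.5, 1557 and 1459 in the shControl replicates and 1659.7, 1881 and 1668 in the shSQLE replicates. The shSQLE values lay inside the shControl range. DHCR7 means were 1695 ± 328 and 1736 ± 125 (SD, n = 3 each), and its log2 fold change was 0.03 (standard error 0.15, 95% interval -0.31 to 0.38, edgeR adjusted p = 0.953). Leaving out shControl replicate 1 gave 0.20 (adjusted p = 0.0870).

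**Figure D2:**
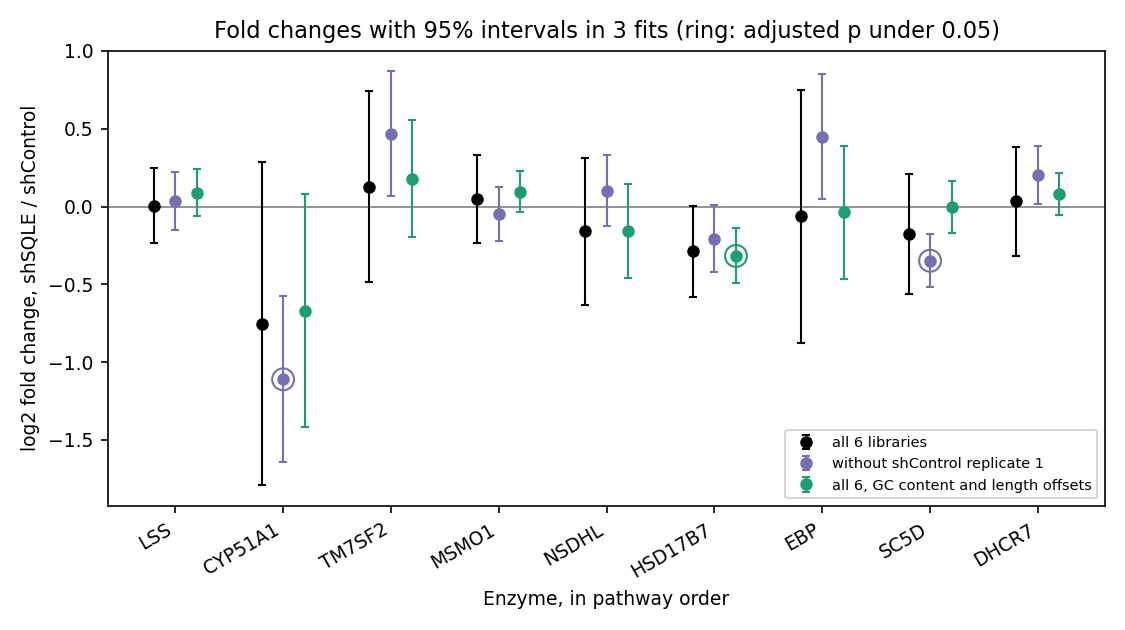
Log2 fold changes of shSQLE against shControl with 95% intervals for the 9 sterol enzymes in 3 edgeR fits: all 6 libraries, without shControl replicate 1, and all 6 with offsets for GC content and length; a ring marks an adjusted p under 0.05. No black point (all libraries) carries a ring, CYP51A1 (-1.11) and SC5D (-0.35) carry one without shControl replicate 1, and HSD17B7 (-0.32) carries one with the offsets.

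Without shControl replicate 1, CYP51A1 and SC5D were the 2 of 9 enzymes lower past the adjusted p and 0 were higher, in a fit where 18.3% of 12570 genes were lower and 15.6% were higher. The median of the 9 enzymes was then 0.04. Relative to the mean of the other shControl libraries, shControl replicate 1 was lower for MSMO1 (-0.31), SC5D (-0.59) and CYP51A1 (-1.66) and higher for the other 6, up to 0.87 for TM7SF2 and 1.21 for EBP, all on the log2 scale. MSMO1, SC5D and CYP51A1 are also the 3 with the lowest GC content, at 37.4, 36.9 and 41.05%. Across the 9 enzymes, which share these libraries, the Pearson correlation of this offset with GC content was 0.71, and across 12447 genes it was 0.72; genes are not independent replicates, and these are descriptions.

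**Figure D3:**
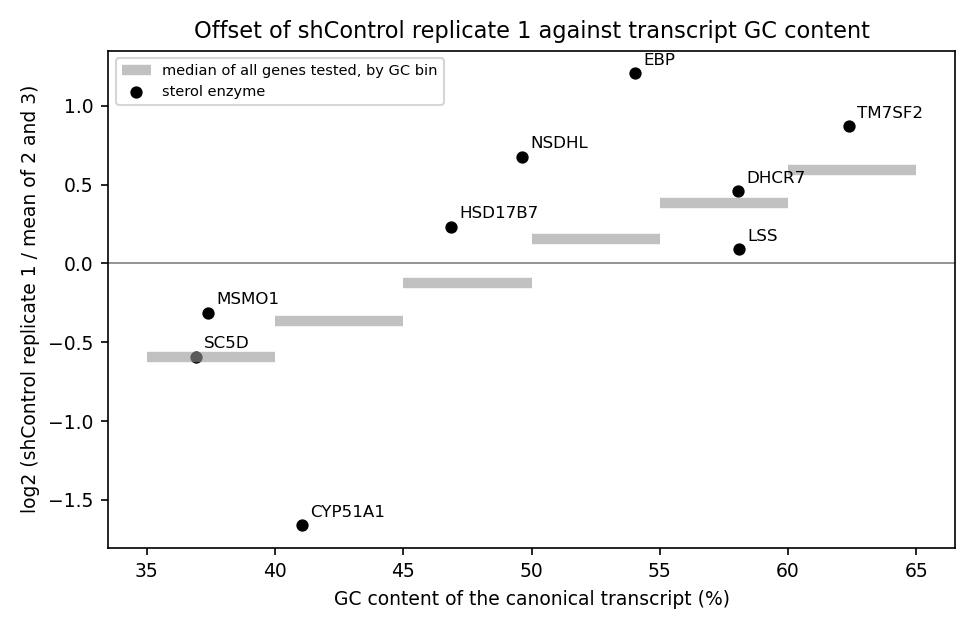
Log2 ratio of shControl replicate 1 to the mean of shControl replicates 2 and 3, against the GC content (%) of the canonical transcript, for the 9 sterol enzymes (points) and as the median of all genes tested in GC bins (grey bars; the outer bins take all genes under 40% and over 60%). The bars climb from -0.59 to 0.59, MSMO1, SC5D and CYP51A1 lie below 0 and the other 6 enzymes above it.

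Levels were compared between enzymes per kilobase of canonical transcript. Over all 6 libraries DHCR7 was the most abundant at 653 normalized counts per kilobase, followed by MSMO1 at 610.2, NSDHL at 354, HSD17B7 at 274, SC5D at 219, LSS at 186, EBP at 168, TM7SF2 at 53.7 and CYP51A1 at 22.2. Several neighbours in this order did not differ beyond the spread among libraries: DHCR7 exceeded MSMO1 in 4 of 6 libraries, SC5D exceeded LSS in 5 and LSS exceeded EBP in 4. The other 5 neighbouring pairs kept their order in 6 of 6 libraries. The last place of CYP51A1 is that of its counted part, given the exons it shares. EBP also shares exons, so its level and place may likewise be those of a counted part.

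Among the enzymes, the most alike pair was NSDHL and DHCR7, with a root mean square difference of 0.13 between their log2 profiles centred over the 6 libraries, and the least alike was CYP51A1 and EBP at 1.12. The genes outside the list nearest to the mean profile of the 9 were ILRUN, SV2A, ATG16L1, GGA3 and UBE2G2, with differences of 0.02 to 0.03. That mean profile was nearly flat, from -0.06 in shSQLE replicate 1 to 0.12 in shControl replicate 1.

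Partner proteins of the same steps were read beside the enzymes. Of the 9 partners, 0 were past the adjusted p in either direction, with a median log2 fold change of 0.08. Among all genes tested, 2.84% were lower and 0.369% higher. Without shControl replicate 1, 0 partners were past it, with a median of 0.14, where 18.3% of all genes were lower and 15.6% higher. CYB5B, a cytochrome b5 of the outer mitochondrial membrane, was at 0.19 (edgeR adjusted p = 0.470), with groups that did not overlap. Such a separation was seen in 1 of the 9 partners in each direction, and in 10.0% of all genes tested upward and 12.1% downward. POR, the reductase that feeds electrons to CYP51A1, was at -0.11 (adjusted p = 0.863), and ERG28, a scaffold of the C4 demethylation complex, at 0.08 (adjusted p = 0.867). Without shControl replicate 1 CYB5B was at 0.14, POR at 0.12 and ERG28 at 0.18.

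Enzymes before the SQLE step were read in the same fit. Of the 9 from ACAT2 to FDFT1, 0 were past the adjusted p, where 2.84% of all genes tested were lower and 0.369% higher. Their median was -0.03, with values from -0.28 to 0.23. Without shControl replicate 1, 2 of them were lower, IDI1 among them, and 4 higher (ACAT2, FDPS, PMVK and MVD), with a median of 0.22. In that fit 18.3% of all genes tested were lower and 15.6% were higher. Its median was -0.25 in genes under 40% GC and 0.21 in genes over 60% GC. The canonical transcript of IDI1 has 37.9% GC, and those of ACAT2, FDPS, PMVK and MVD have 45.5, 55.05, 59.0 and 65.5%. The part of base composition in these calls was not tested. The difference between the enzymes before and after the step was not tested.

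Genes that sense sterols included called ones. Of 8, 2 were lower past the adjusted p, as were 2.84% of all genes tested, and 0 were higher, where 0.369% of all genes were. INSIG1, which holds SCAP in the endoplasmic reticulum, had 629, 745 and 738 normalized counts in the shControl replicates and 472, 433 and 394 in the shSQLE replicates, with a log2 fold change of -0.70 (edgeR adjusted p = 0.0293). The log2 fold change of SREBF1, which encodes the related factor SREBP-1, was -0.88 (adjusted p = 0.0332). SREBF2, which encodes SREBP-2 itself, lay at 0.02 (95% interval -0.19 to 0.23, adjusted p = 0.965). With shControl replicate 1 left out, 4 of the 8 were lower and 1, SCAP, was higher, with INSIG1 at -0.78 (adjusted p = 0.000145) and SREBF1 at -0.67 (adjusted p = 0.000143). In that fit 18.3% of all genes tested were lower and 15.6% were higher. INSIG1 and SREBF1 each lost the call when any single library but shControl replicate 1 was left out. That INSIG1 passed the test and the enzymes did not does not show that they differ, and this difference was not tested.

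**Figure D4:**
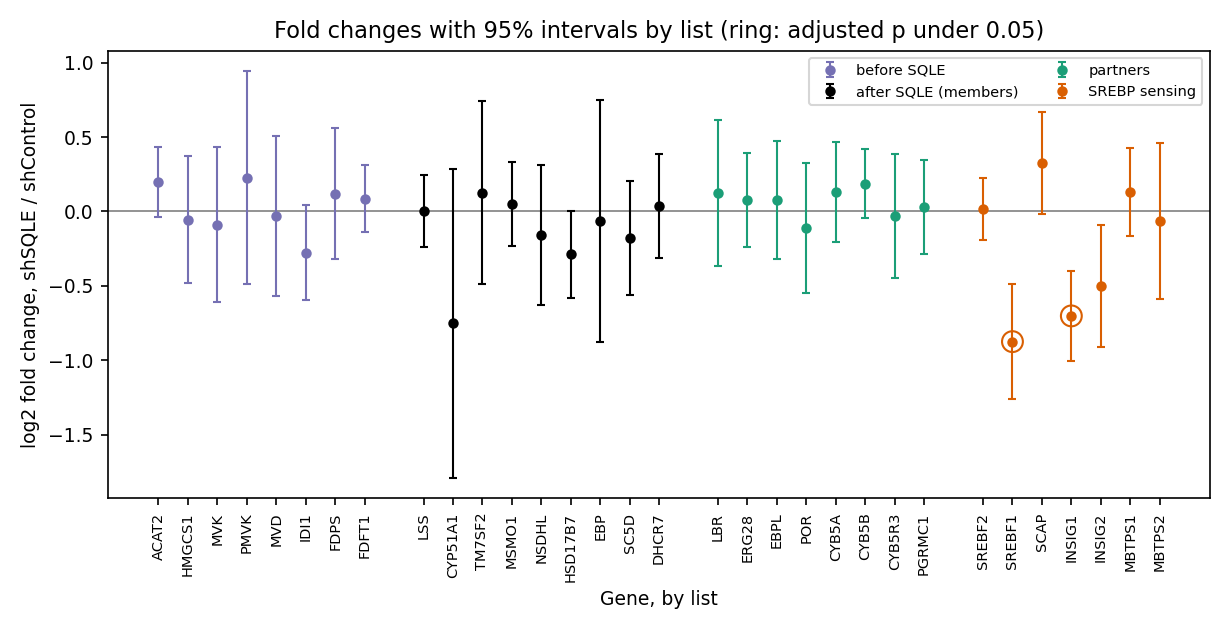
Log2 fold changes of shSQLE against shControl with 95% intervals, all 6 libraries, for the 9 sterol enzymes and for genes of the lists before SQLE, partners and SREBP sensing, of which some members are not shown; a ring marks an adjusted p under 0.05. Rings appear on SREBF1 (-0.88) and INSIG1 (-0.70) and on no enzyme, and CYP51A1 has the widest interval among the enzymes after SQLE (-1.79 to 0.29).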

How the data were processed

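The deposited table holds raw gene counts, which the authors made with fastp 0.20.0 (trimming), STAR 2.7.9a (alignment, hg38) and featureCounts 2.0. The annotation release, the use of strand and the handling of multi-mapping reads are not given in the sources used here. Library sizes ranged from 12212378 to 14393292 counts. Of 19937 genes, 12450 passed edgeR's filterByExpr and were fitted together with R 4.3.3, edgeR 4.0.16 (quasi-likelihood test, TMM, a term for condition alone), with p-values adjusted by Benjamini-Hochberg and a threshold of 0.05, after tests on simulated data. Standard errors are the log2 fold change divided by the square root of F, and 95% intervals use the fit's degrees of freedom. Gene positions, exons, lengths and GC content come from GENCODE v44. Alternatives used DESeq2 1.42.0, other normalizations and filters, offsets for GC content and length fitted within each library (mgcv 1.9.3; 99.98% of genes tested had both), the replicate number as a block, and each library left out in turn. The members, lists and alternatives were chosen with earlier results of these data known. Named genes are the 9 enzymes, SQLE, 5 partners, the called genes of each context list, and the 5 genes of nearest profile. The genes sharing exons, SREBF2, the other cell type markers and those called without shControl replicate 1 were named after their values were seen. Some genes of the context lists, though counted in them, are not reported here by name.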

Additional observations from a re-analysis of the deposited data

How the results depend on the processing

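The count of sterol enzymes called stayed at 0 in both directions with DESeq2, RLE or library-size scaling, both changed filters, the replicate block and an adjusted p under 0.1. It was 1 lower (HSD17B7) with offsets for GC content and length, with and without the replicate block, and between 0 and 2 lower when 1 library was left out, the 2 without shControl replicate 1 (CYP51A1 and SC5D). The median of the 9 enzymes was -0.0045 with the offsets, -0.0066 with the offsets and the block, 0.0068 with the replicate block and 0.0057 without CYP51A1 and EBP, a choice made after seeing the data; leaving out 1 library moved it between -0.15 (without shSQLE replicate 2) and 0.038 (without shControl replicate 1). Over all genes the median was -0.01 as reported and 0.064 with the offsets.

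Small fold changes changed sign. With library size only LSS was at -0.033, and with the replicate block EBP was at 0.011. With 1 library left out, the log2 fold change ranged from -0.037 to 0.038 for LSS, -0.088 to 0.47 for TM7SF2, -0.046 to 0.15 for MSMO1, -0.29 to 0.10 for NSDHL, -0.29 to 0.45 for EBP and -0.052 to 0.20 for DHCR7, while CYP51A1 (-1.11 to -0.45), HSD17B7 (-0.34 to -0.21) and SC5D (-0.35 to -0.05) stayed negative. LBR and POR reversed without shControl replicate 1, to -0.083 and 0.12, with ranges of -0.083 to 0.29 and -0.23 to 0.12. The cause of these changes was not tested.

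Over all genes, 354 were lower and 46 higher. The counts were 556 and 158 with DESeq2, 1079 and 1588 with the offsets, and 1005 and 1435 with the offsets and the block, and 113 were higher at an adjusted p under 0.1. Leaving out 1 library gave 101 to 2300 lower and 4 to 1964 higher genes. Whether same-numbered libraries were paired is not given in the sources used here. Deviations of same-numbered libraries correlated at 0.14, -0.43 and 0.54. Replicates 1 and 2 of shSQLE both correlated best with shControl replicate 1, and shSQLE replicate 3 with shControl replicate 3. Deviations from the mean of 3 libraries are tied to each other, so these correlations cannot decide the pairing. The replicate block gave 362 lower and 34 higher genes. With the block INSIG1 lost its call (edgeR adjusted p = 0.0562). COL1A1 lost its call with the block (edgeR adjusted p = 0.106), with no filter (0.0587) and with at least 10 counts in every library (0.0511). It also lost the call when any library but shControl replicate 1 was left out (adjusted p from 0.131 to 0.253). SQLE kept its call in every alternative run, from -3.12 to -2.87. Depth was lowest for CYP51A1, with 31 to 122 counts per library, and TM7SF2, with 62 to 101.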
